A study of Mus musculus with 6 samples.

Results

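The 10 genes described here are the glucose transporters Slc2a1 and Slc2a3 and 8 enzymes of glycolysis, Hk1, Hk2, Pfkl, Pfkp, Aldoa, Pgk1, Pkm and Ldha. They were chosen by name, and all 10 had a row among the 17110 genes of the authors' deposited table. The RNA came from mouse embryonic stem cells of the line TG2A, genotype MERVL::Fluorescent protein, in which MERVL drives a red reporter protein (DsRed2); MERVL is an endogenous retrovirus transcribed in the early embryo and in few cultured stem cells. Sorting by flow cytometry gave a DsRed2+ and a DsRed2- group of 3 samples each, collected on different dates from cultures in high-glucose medium with serum and leukemia inhibitory factor. Both groups therefore shared the line, the reporter and the glucose supply, and no other cell line was examined. Messenger RNA was captured with oligo(dT) and sequenced as paired ends. The sorted groups form the only comparison, and it was read from the authors' deposited table, with a single fold change for each gene and no word on the numerator. Signs are kept as deposited, and which sorted group a negative value favours is unknown here. The table names no groups at all, and the sorted groups are taken to be those compared because the labels list no others. The count columns carry run and barcode numbers that match no sample label, so values per sample and the depth of each library were not analysed here.

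Glycolysis turns glucose into pyruvate in the cytosol and yields ATP without oxygen. Facilitative transporters of the Slc2a family bring glucose in, hexokinases trap it as glucose-6-phosphate, and phosphofructokinase is the main regulated step before the sugar is split. The lower enzymes recover ATP at phosphoglycerate kinase and pyruvate kinase, and lactate dehydrogenase regenerates NAD+ by turning pyruvate into lactate, which leaves through monocarboxylate transporters. Many of these genes are known targets of the hypoxia-inducible factors and of Myc. Mouse embryonic stem cells in culture use glycolysis heavily, and primed pluripotent cells are known for relying on it more than naive cells do.

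Both glucose transporters had negative fold changes near -1 on the log2 scale, while 7 of the 8 enzymes did not pass an adjusted p-value of 0.05 in the authors' deposited table. Of the 10 genes, 3 were past that threshold and negative (Slc2a1, Slc2a3 and Pgk1) and 0 were positive. Taking every gene of the authors' deposited table, 15.9% were past it and negative and 14.6% positive. All 10 genes had a mean normalized count of at least 1000, and among the 5780 genes at that level in the authors' deposited table the shares were 12.6% negative and 18.3% positive. The authors' own down call, which also asks for an absolute log2 fold change over 0.5, took Slc2a1 and Slc2a3 and left out Pgk1 in the authors' deposited table, and 12.1% of all its genes carry that call. The 10 genes had a median of -0.12 on the log2 scale, against 0.0097 for all genes of the authors' deposited table. In bulk RNA, fewer cells that express a gene and less RNA per cell cannot be told apart.

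**Figure D1:**
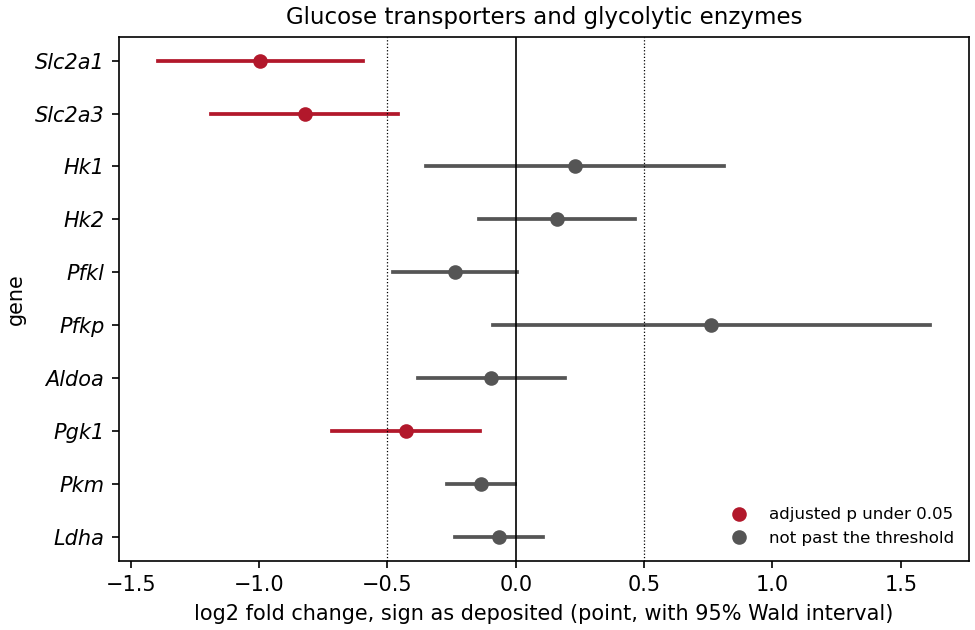
Log2 fold change of each of the 10 genes, sign as deposited, on the x axis, with genes from uptake to lactate on the y axis; points are the deposited values, lines their 95% Wald intervals, dotted lines the limit of 0.5 in the authors' calls. Slc2a1 (-0.99) and Slc2a3 (-0.82) lie to the left of that limit, Pgk1 (-0.43) lies inside it, and the other 7 intervals are drawn in grey because the adjusted p-value was not under 0.05.

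Slc2a1 encodes GLUT1, the widely expressed basal glucose carrier. On the log2 scale its fold change was -0.99 ± 0.20 (the deposited standard error, as for each ± below) in the authors' deposited table (ENSMUSG00000028645, adjusted p-value 1.09e-05). This is a ratio of 0.502 between the groups, with a 95% Wald interval of 0.380 to 0.662. Slc2a3 encodes GLUT3, a carrier with high affinity for glucose that is best known from neurons and the early embryo. In the authors' deposited table it stood at -0.82 ± 0.19 (ENSMUSG00000003153, adjusted p-value 8.06e-05), a ratio of 0.565 with an interval of 0.439 to 0.728. The intervals of the carriers overlap, and the difference between them was not tested. Of the 5780 genes whose mean count reached 1000 in the authors' deposited table, 1.64% had a lower fold change than Slc2a1 and 2.34% a lower one than Slc2a3. Slc2a3 was the more abundant carrier: per kilobase of its longest coding transcript its mean normalized count was 11399, against 5148 for Slc2a1, a ratio of 2.21 between genes in the authors' deposited table.

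The stretch before the start site is shown for the carrier Slc2a1 and for Pgk1, which passed the threshold, and for Hk2, which did not. They were chosen because each holds the letters ACGTG, a form of the core that hypoxia-inducible factors are known to bind. Slc16a3, a lactate carrier described below, is shown for the same reason. Each run is the 250 bases before the start site, 5′ to 3′ on the gene's strand, from RefSeq on GRCm38.p6, which is not the build in the submitters' notes, and capitals mark ACGTG or its reverse complement CACGT. The windows are chr4:119108495-119108744 (+ strand) for Slc2a1, chrX:106186850-106187099 (+ strand) for Pgk1, chr6:82774455-82774704 (- strand) for Hk2 and chr11:120948817-120949066 (+ strand) for Slc16a3.
Slc2a1: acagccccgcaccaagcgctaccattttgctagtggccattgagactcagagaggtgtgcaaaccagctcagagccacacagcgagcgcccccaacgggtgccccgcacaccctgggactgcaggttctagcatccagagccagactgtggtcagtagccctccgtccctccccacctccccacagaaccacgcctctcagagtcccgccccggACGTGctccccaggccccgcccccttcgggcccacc
Pgk1: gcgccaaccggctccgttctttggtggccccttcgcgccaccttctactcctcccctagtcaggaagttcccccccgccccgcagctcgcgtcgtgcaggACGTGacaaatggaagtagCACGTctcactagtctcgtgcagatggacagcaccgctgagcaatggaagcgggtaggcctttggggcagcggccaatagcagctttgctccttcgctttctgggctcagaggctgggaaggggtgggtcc
Hk2: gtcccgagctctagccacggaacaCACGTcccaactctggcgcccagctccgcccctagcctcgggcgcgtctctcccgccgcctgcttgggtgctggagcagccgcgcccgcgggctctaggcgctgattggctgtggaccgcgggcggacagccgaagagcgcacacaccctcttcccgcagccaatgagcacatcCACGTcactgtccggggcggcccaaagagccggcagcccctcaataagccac
Slc16a3: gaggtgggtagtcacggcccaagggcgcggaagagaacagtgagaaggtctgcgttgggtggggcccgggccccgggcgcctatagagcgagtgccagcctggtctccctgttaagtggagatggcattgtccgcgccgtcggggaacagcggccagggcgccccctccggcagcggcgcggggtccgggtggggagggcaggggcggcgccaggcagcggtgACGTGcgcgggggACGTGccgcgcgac

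Slc2a1 has 1 match, which begins 36 bases before the start. Pgk1 has 2, at 150 and 131 bases, Hk2 has 2, at 226 and 52 bases, and Slc16a3 has 2, at 27 and 14 bases. Of the 10 genes, 9 had at least 1 window in the RefSeq table, Slc2a3 had none, and 7 of their 14 windows held ACGTG on either strand. Alternative starts give some genes several windows, and a pair of Aldoa windows overlap and share their match. Among all 32851 windows of the same length, 16.6% held ACGTG, and 21.1% did among the 14675 windows of genes that have a row in the authors' deposited table. The longer CACGTG, the E-box of Myc, contains ACGTG on both strands and was in 1 of the 14 windows, that of an Ldha start, which holds ACGTG at 3 separate places, against 6.02% of all windows and 8.14% of those of genes with a row in the authors' deposited table. The bases after that Ldha start were not found near the beginning of an Ldha transcript of GENCODE M21, whereas those of the other 13 windows were found in a transcript of their gene. The windows of Hk1, Pfkl and Pfkp held no ACGTG in these 250 bases. Other forms of the core, such as GCGTG, were not counted, so a window without ACGTG may still hold the core. Matches were thus found both in genes that passed the threshold (Slc2a1 and Pgk1) and in genes that did not (Hk2, Aldoa, Pkm and Ldha), and a match is only a run of letters, not a bound site.

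Hexokinases phosphorylate glucose and so keep it in the cell. Hk1, the housekeeping form, stood at 0.23 ± 0.30 on the log2 scale in the authors' deposited table (ENSMUSG00000037012, adjusted p-value 0.619). Hk2, the inducible form that docks on mitochondria, had 0.16 ± 0.15 in the authors' deposited table (ENSMUSG00000000628, adjusted p-value 0.479). Neither could be told from 0, and the intervals on the log2 scale ran from -0.35 to 0.81 for Hk1 and from -0.14 to 0.46 for Hk2. The interval of Hk2 leaves out a decrease of the size seen for the carriers. Hk2 was the main form by level, with 1791 mean normalized counts per kilobase against 309.3 for Hk1, a ratio of 5.79 between genes in the authors' deposited table.

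Phosphofructokinase is a tetramer built from liver (Pfkl), platelet (Pfkp) and muscle (Pfkm) subunits. Pfkl stood at -0.24 ± 0.12 on the log2 scale in the authors' deposited table (ENSMUSG00000020277, adjusted p-value 0.140). Pfkp was the only one of the 10 genes with a fold change above 0.5, at 0.76 ± 0.43 in the authors' deposited table (ENSMUSG00000021196, adjusted p-value 0.186). Its interval, -0.090 to 1.61, includes 0, so the opposite signs of the subunits are not separated from the spread between samples, and their difference was not tested. Per kilobase, Pfkl and Pfkp had similar levels, 2983 and 2366 mean normalized counts in the authors' deposited table, and Pfkm had 413.8. Pfkm, which is not among the 10 genes, stood at -0.35 ± 0.19 in the authors' deposited table (with adjusted p-value 0.155).

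Aldolase A (Aldoa) splits fructose-1,6-bisphosphate. On the log2 scale it stood at -0.095 ± 0.15 in the authors' deposited table (ENSMUSG00000030695, adjusted p-value 0.686). Pgk1, phosphoglycerate kinase, makes the first ATP of the pathway and is X-linked. It had -0.43 ± 0.15 in the authors' deposited table (ENSMUSG00000062070, adjusted p-value 0.0152), a ratio of 0.744 with an interval of 0.610 to 0.909. Of the 8 enzymes it alone passed the threshold, and it lost the call at an adjusted p-value of 0.01 or with the authors' fold limit of 0.5.

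Pyruvate kinase (Pkm) makes the second ATP, and its muscle and embryonic isoforms come from alternative exons that a value per gene does not separate. Pkm was the most abundant of the 10 genes and the most precisely measured, with 115912 mean normalized counts and -0.14 ± 0.067 on the log2 scale in the authors' deposited table (ENSMUSG00000032294). Its unadjusted p-value was 0.0429 and its adjusted p-value 0.115 in the authors' deposited table. Ldha encodes the lactate dehydrogenase subunit that favours lactate production. It stood at -0.065 ± 0.088 in the authors' deposited table (ENSMUSG00000063229, adjusted p-value 0.638), and its interval of -0.24 to 0.11 leaves out a change of the size seen for Slc2a1 or Slc2a3. Shifting all fold changes by the median of 77 ribosomal protein genes, 0.093, brought Pkm to -0.23 (Wald adjusted p-value 0.00339) and Pfkl to -0.33 (0.0271), both then past the threshold. Over all 7 alternatives the adjusted p-values lay between 0.00339 and 0.115 for Pkm and between 0.0271 and 0.140 for Pfkl.

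The same steps hold enzymes outside the 10 genes, and 18 of 23 listed had a row in the authors' deposited table. Of these 18, 2 were past the threshold and negative and 1 positive, beside 15.9% and 14.6% of all genes. The median of the 18 was -0.042 on the log2 scale in the authors' deposited table. The negative ones were Tpi1, triose phosphate isomerase, at -0.40 ± 0.12 (adjusted p-value 0.00544), and Bpgm, which makes 2,3-bisphosphoglycerate, at -0.30 ± 0.11 (adjusted p-value 0.0206) in the authors' deposited table. The positive one was Ldhc, the testis form of lactate dehydrogenase, at 1.77 ± 0.27 and a mean count of only 102.7 in the authors' deposited table (with adjusted p-value 2.21e-09). Ldhb, the subunit that favours pyruvate, had 0.92 ± 0.39 and did not pass (adjusted p-value 0.0568 in the authors' deposited table). Per kilobase it reached 6132 mean normalized counts, against 34757 for Ldha. Gapdh, Pgam1 and Eno1, the abundant enzymes between aldolase and pyruvate kinase, stood at -0.094 ± 0.081, -0.052 ± 0.092 and 0.020 ± 0.073 in the authors' deposited table, and none of these passed (adjusted p-values 0.424, 0.730 and 0.881). The sign of Eno1 turned to -0.073 after the ribosomal shift, still without a call. Gpi1, which converts glucose-6-phosphate to fructose-6-phosphate, had -0.22 ± 0.16 in the authors' deposited table (with adjusted p-value 0.330).

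Several of these genes have near-identical copies, and how reads were divided among them was not examined. The copy Pgk1-rs7 had a row of its own, with a mean count of 1267, a fold change of 0.25 ± 0.53 on the log2 scale in the authors' deposited table, and Ldha-ps2 had a mean count of 68.04. Eno1 and Eno1b had nearly the same values, 0.020 and 0.028, in the authors' deposited table.

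**Figure D2:**
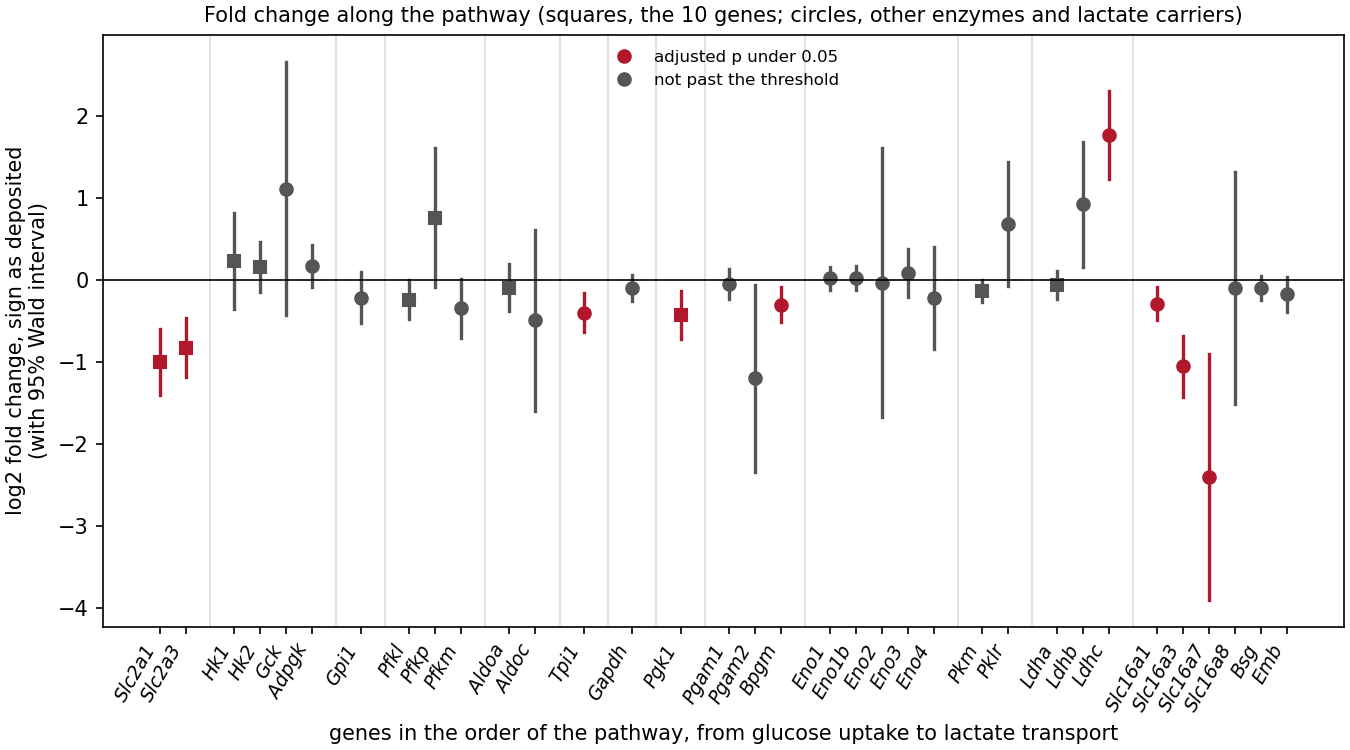
Log2 fold change, sign as deposited, with 95% Wald intervals on the y axis, for genes in pathway order on the x axis; squares are the 10 genes, circles the other listed enzymes and lactate carriers with a row, and red marks an adjusted p-value under 0.05. Red and below 0 are Slc2a1 (-0.99), Slc2a3 (-0.82), Tpi1 (-0.40), Pgk1 (-0.43), Bpgm (-0.30), Slc16a1 (-0.29), Slc16a3 (-1.05) and Slc16a7 (-2.40), and Ldhc (1.77) is red and above 0.

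Lactate leaves the cell through monocarboxylate transporters with the chaperone basigin (Bsg). Of 6 listed genes of this step, 3 were past the threshold, all negative, beside 15.9% of all genes. The median of the 6 on the log2 scale was -0.23 in the authors' deposited table. Slc16a3 (MCT4), the carrier typical of highly glycolytic cells, had -1.05 ± 0.19 in the authors' deposited table (ENSMUSG00000025161, adjusted p-value 3.74e-07). Slc16a1 (MCT1) had -0.29 ± 0.10 (adjusted p-value 0.0192), and Slc16a7 had -2.40 ± 0.77 at a mean count of only 11.73 in the authors' deposited table (with adjusted p-value 0.00793). Bsg stood at -0.095 ± 0.072 and did not pass (adjusted p-value 0.350 in the authors' deposited table), but it did after the ribosomal shift, at -0.19 (adjusted p-value 0.0326).

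Fructose-2,6-bisphosphate is the strongest known activator of phosphofructokinase. Pfkfb3, the kinase that makes most of it in proliferating cells, had -1.20 ± 0.22 in the authors' deposited table (with adjusted p-value 5.81e-07). Tigar, which degrades it, had 0.76 ± 0.081 in the authors' deposited table (with adjusted p-value 4.06e-19). The other 3 genes of this list of 5, Pfkfb1, Pfkfb2 and Pfkfb4, did not pass. Of 13 other hexose carriers, 7 had a row in the authors' deposited table. Past the threshold, 2 of the 7 were positive and 0 negative, beside 14.6% and 15.9% of all genes. These were Slc5a1, a sodium-coupled glucose carrier, at 2.76 ± 0.54, and the fructose carrier Slc2a5, at 0.79 ± 0.29 in the authors' deposited table (with adjusted p-values 3.10e-06 and 0.0224). Their mean normalized counts, 37.50 and 83.52 in the authors' deposited table, are far below those of Slc2a1 and Slc2a3, 16781 and 45127.

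Hypoxia-inducible factors are transcription factors whose alpha subunits are destroyed in oxygen after prolyl hydroxylation by the Egln enzymes. Besides the 10 genes, 22 further hypoxia-inducible target symbols were listed, and 21 had a row in the authors' deposited table. Of these 21, 11 (52.4%) were past the threshold and negative and 2 (9.52%) positive in the authors' deposited table, beside 15.9% and 14.6% of all genes. The list shares Slc16a3, Pfkfb3, Pfkfb4, Pdk1, Pgam1 and Egln3 with the other lists, and of the 15 in no other list 9 were negative and 2 positive past this threshold in the authors' deposited table. The 21 had a median of -0.73 on the log2 scale in the authors' deposited table. Adm, which encodes the vessel-dilating peptide adrenomedullin, had -3.00 ± 0.58 at a mean count of 37.86 in the authors' deposited table (with adjusted p-value 2.89e-06). The collagen prolyl hydroxylases P4ha1 and P4ha2 had -1.27 ± 0.41 and -1.11 ± 0.27 in the authors' deposited table (with adjusted p-values 0.00945 and 0.000208). The positive ones were Kdm3a, a histone H3K9 demethylase, at 0.54 ± 0.11, and the Myc antagonist Mxi1, at 0.58 ± 0.19 in the authors' deposited table (with adjusted p-values 3.88e-06 and 0.0117). Pdk1, the kinase that shuts off pyruvate dehydrogenase, had 0.16 ± 0.17 in the authors' deposited table without passing (adjusted p-value 0.536). Also among the 8 that did not pass were Vegfa (-0.73 ± 0.59), Bnip3 (-0.37 ± 0.53) and Car9 (0.48 ± 0.68, mean count 13.60). Their adjusted p-values were 0.380, 0.663 and 0.655 in the authors' deposited table. Like the others, this list was chosen with earlier results of these data known.

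The factors themselves had fold changes of both signs. Hif1a had 0.046 ± 0.14 in the authors' deposited table (with adjusted p-value 0.849) and turned to -0.047 after the ribosomal shift, without a call either way. Epas1, the alpha subunit HIF2A, had 1.70 ± 0.18 in the authors' deposited table (with adjusted p-value 1.90e-20). The oxygen sensor Egln1 had -1.22 ± 0.27 in the authors' deposited table (with adjusted p-value 3.94e-05) and the partner subunit Arnt2 had -0.82 ± 0.19 (adjusted p-value 0.000132). Of the 10 factors and regulators, 2 were past the threshold and negative and 3 positive in the authors' deposited table, beside 15.9% and 14.6% of all genes. RNA levels of these factors do not measure their protein, which is the regulated form.

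**Figure D3:**
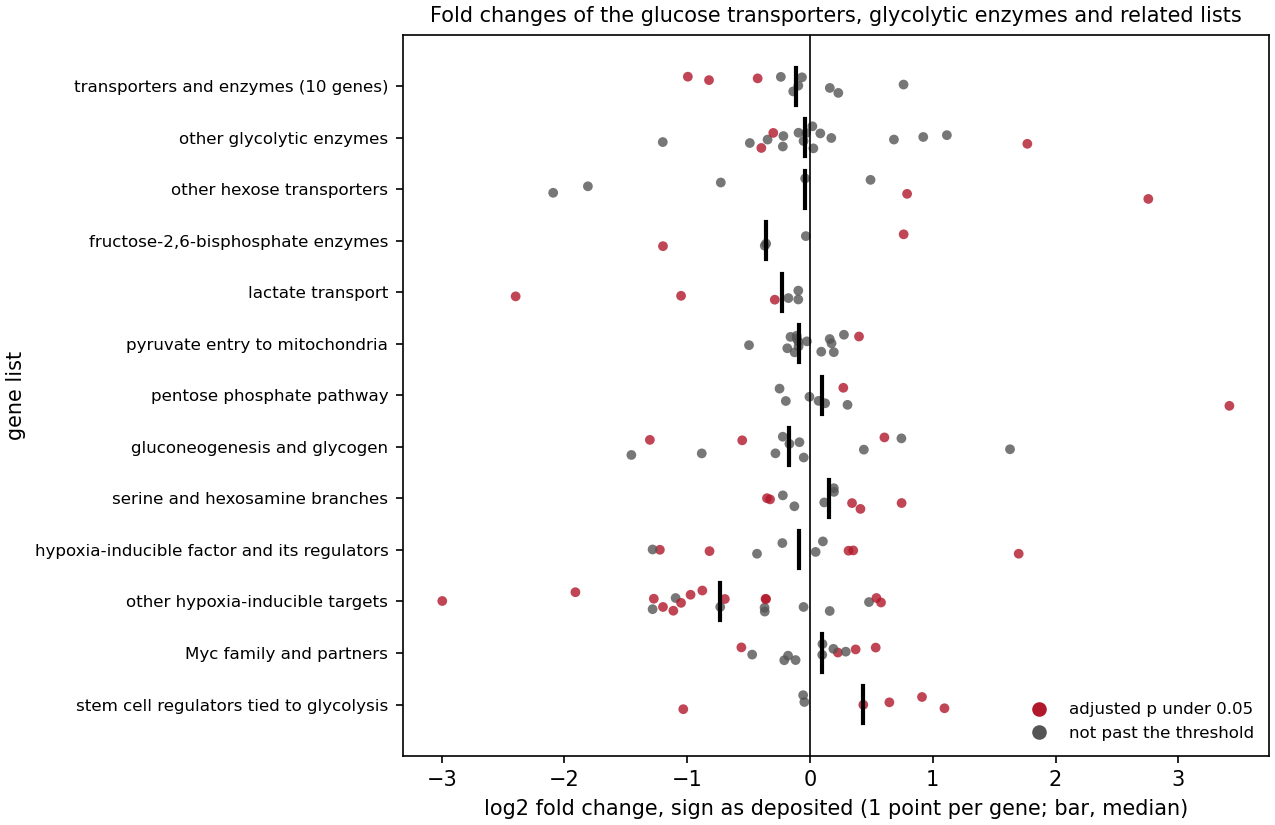
Log2 fold change, sign as deposited, on the x axis for each gene with a row, by list on the y axis; red points have an adjusted p-value under 0.05 and black bars are medians. The hypoxia-inducible targets have a median of -0.73, the 10 transporters and enzymes -0.12 and the other glycolytic enzymes -0.042.

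The standard errors of some of these genes were large for their counts. Among the 5780 genes whose mean count reached 1000 in the authors' deposited table, standard errors had a median of 0.11 (log2 scale). Pfkp (0.43), Hk1 (0.30), Slc2a1 (0.20) and Slc2a3 (0.19) had standard errors above those of 95% of such genes in the authors' deposited table, which is 4 of the 10 genes. The same held for 7 of the 12 hypoxia-inducible targets at that level, such as Ddit4, a stress-induced inhibitor of mTOR signalling, at -1.91 ± 0.69 in the authors' deposited table (with adjusted p-value 0.0224). Pkm and Ldha were measured more tightly, with standard errors larger than those of only 0.571% and 18.0% of such genes in the authors' deposited table. The spread of the carriers and of Pfkp is therefore wide although their counts are high. Which libraries carry it was not tested, for want of values per sample.

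**Figure D4:**
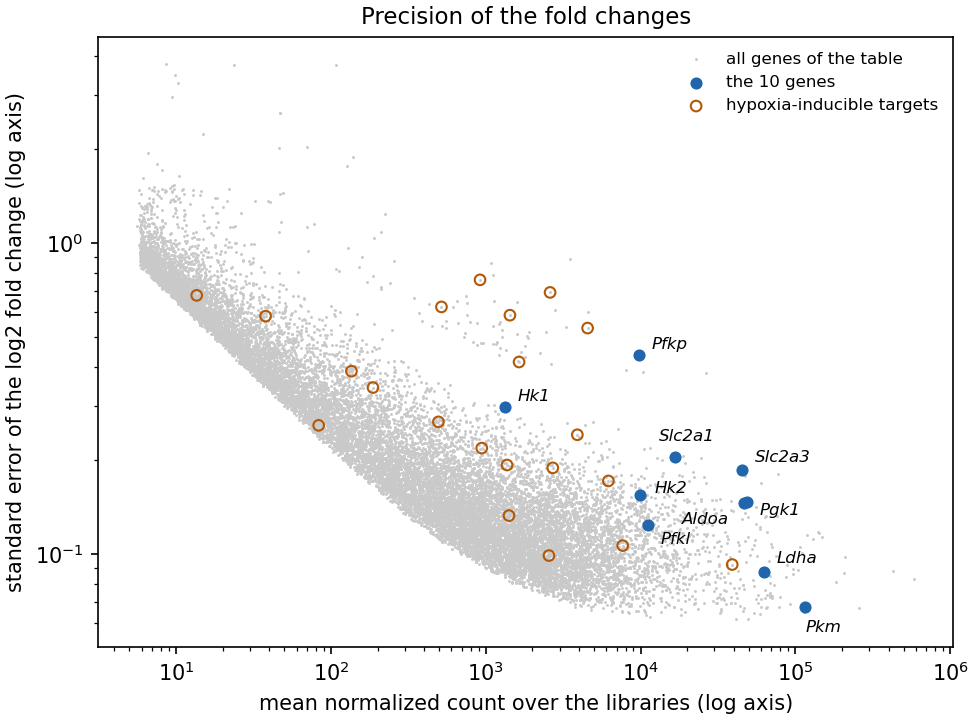
Standard error of the log2 fold change on the y axis against the mean normalized count on the x axis, both log axes, for all 17110 genes (grey), the 10 genes (blue, named) and the hypoxia-inducible targets (open circles). Pfkp (0.43) and Hk1 (0.30) lie above most genes of similar count, and Pkm (0.067) lies at the lower edge.

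Routes that branch from glycolysis were mixed. In the pentose phosphate pathway, which makes NADPH and ribose, 2 of 8 genes were past the threshold and positive and 0 negative in the authors' deposited table: Taldo1 (transaldolase) at 0.27 ± 0.070, and Tktl1, a transketolase-like gene, at 3.42 ± 1.03 and a mean count of 7.58. Among all genes 14.6% were positive and 15.9% negative past it, and whether 2 of 8 differs from that share was not tested. Of 15 genes of pyruvate entry to mitochondria, only Pcx (pyruvate carboxylase) passed in the authors' deposited table, at 0.40 ± 0.12. Glycogen genes split: the branching enzyme Gbe1 had -1.30 ± 0.16 and the synthase Gys1 had 0.61 ± 0.13 in the authors' deposited table (with adjusted p-values 7.23e-14 and 4.44e-05). The rate-limiting hexosamine enzymes also had opposite signs, with Gfpt2 at 0.75 ± 0.096 and Gfpt1 at -0.33 ± 0.11 in the authors' deposited table (with adjusted p-values 1.71e-13 and 0.0134). The difference within each pair was not tested.

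Regulators known to act on glycolysis in stem cells were counted as well. Of 12 genes listed for the Myc family and its partners, 1 was negative and 3 positive past this threshold in the authors' deposited table. Among all genes, 15.9% were negative and 14.6% positive past it. The 12 include Txnip and Arrdc4, which are neither Myc family members nor partners. They leave out Mxi1, which was counted above among the hypoxia-inducible targets. Myc and Mycn, at -0.12 ± 0.29 and -0.21 ± 0.11, did not pass. Mycn passed after the ribosomal shift, at -0.30 (adjusted p-value 0.0247). Mycl, a less studied member, had -0.56 ± 0.18, and Mxd3, a Max partner that opposes Myc, had 0.54 ± 0.18 in the authors' deposited table (with adjusted p-values 0.00878 and 0.0108). Of 7 stem cell regulators tied to glycolysis, 4 were positive and 1 was negative past this threshold in the authors' deposited table. The median of the 7 was 0.43 on the log2 scale. Zfp42 and Esrrb, both among the positive ones, are counted again in the naive pluripotency list below. The smallest p-value was that of Zfp42 (Rex1), a zinc finger protein known as a marker of naive cells, which had 1.10 ± 0.092 in the authors' deposited table (with adjusted p-value 1.6e-30). The negative one was Lin28b, an RNA-binding blocker of let-7 maturation, which had -1.03 ± 0.12 in the authors' deposited table (with adjusted p-value 2.28e-17), whereas its relative Lin28a had -0.046 ± 0.16 (adjusted p-value 0.873). The difference between these relatives was not tested.

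Markers of cell state moved in the same comparison. Past this threshold, 14.6% of all genes were positive and 15.9% negative in the authors' deposited table. Naive pluripotency genes were positive in 13 and negative in 1 of 16 past it, with a summed mean count of 119559. That list also holds Pou5f1 (mean count 32810) and Sox2 (10086), which are not particular to naive cells. Formative and primed epiblast genes were negative in 8 of 11, trophectoderm genes in 7 of 11, fibroblast genes in 5 of 10 and primitive endoderm genes in 4 of 11 in the authors' deposited table. Positive past the threshold were 0, 0, 0 and 1 of these in the authors' deposited table. The positive one was Lama1, at 1.91 ± 0.16 (adjusted p-value 5.35e-30). The primitive endoderm genes Gata4, Gata6 and Sox7 did not pass, at mean counts of only 14.66, 9.05 and 10.16 in the authors' deposited table. Among the trophectoderm genes, Gata2, Gata3, Tfap2c and Ascl2 did not pass. The summed mean counts of the last 4 lists were 23696, 6634, 3198 and 6433 in the authors' deposited table, and Sox17, Foxa2, Col3a1, Dcn and Elf5 had no row used here. Most of the 23696 came from Dnmt3b (mean count 14616), which was negative past the threshold, and Dnmt3a (4119), which did not pass. Of 20 listed two-cell symbols, 3 had a row in the authors' deposited table, and 2 of these were positive and 0 negative past the threshold. Calcoco2, an autophagy receptor, had 3.10 ± 0.14 and Eif1a, a translation initiation factor, 0.26 ± 0.099 in the authors' deposited table (with adjusted p-values 3.28e-107 and 0.0317), and Eif1a lost its call after the ribosomal shift. Mean counts were 536.0 for Calcoco2 and 10229 for Eif1a, and whether so abundant a gene marks the two-cell state here was not tested. The groups behind the sign were not inferred from these values. The levels of these markers in each group cannot be given without values per sample, and the part of the cell states in the fold changes of Slc2a1, Slc2a3 and the hypoxia-inducible targets was not tested.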

How the data were processed

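Polyadenylated RNA of 6 samples, 3 per sorted group, was sequenced. The submitters' processing notes list FastQC 0.12.1, Trimmomatic 0.39, STAR 2.7.11b, RSEM 1.3.3, DESeq2 1.45.3 and the build GRCm39. The annotation release, model formula and reference group are not given in the sources used here. The comparison table that the authors deposited holds, per the file headers, a mean normalized count (a signal pooled over libraries), a log2 fold change with its standard error on the log2 scale, a statistic and p-values with adjusted p-values. The deposited statistic is a score, and dividing each fold change by its error gave the same value to within 5.77e-07, as a Wald statistic would. The deposited up and down calls equalled an adjusted p-value under 0.05 with an absolute log2 fold change over 0.5, with 0 exceptions. A deposited table of counts with 6 columns that match no sample was not used, so the planned edgeR refit was not run. Its gene identifiers include all 10 genes.

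Computed here with Python 3.11.15, pandas 2.3.3 and scipy 1.17.1 were 95% intervals (1.96 standard errors), counts per list, and mean counts per kilobase of the longest coding transcript in GENCODE M21, which is not the authors' release. Recomputed tests used two-sided Wald p-values with Benjamini-Hochberg adjustment over all 17110 genes. The code was tested on simulated fold changes drawn with the deposited standard errors, which cannot show whether those errors hold for 3 samples per group. The labels say that the samples are biological replicates. Because the model formula is not given, whether the deposited p-values took the collection dates into account is unknown. The members and lists were chosen with earlier results of these data known. Named outside the members were the 2 genes of each list with the smallest p-value past the threshold, for marker lists only by counts except the two-cell list, and enzymes of the members' steps. Other names, such as P4ha1, Ddit4, Hif1a, Pdk1, Myc and Lin28a, were chosen after their values were seen. So were Vegfa, Bnip3, Car9 and Esrrb, and the markers named singly outside the two-cell list. Genes most like the members across samples were not named, since no value per sample was used.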

Additional observations from a re-analysis of the deposited data

How the results depend on the processing

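No paired analysis was possible because the columns of counts bear neither sample names nor replicate numbers. For the same reason the edgeR refit, DESeq2 size factors, the filter on low counts and leaving out each replicate were not run, and whether 1 library decides a value is not answered. The 7 alternatives run were on the deposited values.

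The 3 negative calls among the 10 genes became 5 after centring on the ribosomal protein genes, with Pkm and Pfkl added, and 0 at an absolute log2 fold change over 1. Among the 126 other pathway genes, 23 were negative and 23 positive past the threshold. These became 14 and 15 at an adjusted p-value under 0.01, 16 and 14 at an absolute log2 fold change over 0.5, 10 and 5 over 1, and 35 and 17 after ribosomal centring. The hypoxia-inducible targets, 11 negative and 2 positive, became 6 and 1 at 0.01, and 6 and 0 at a fold change over 1. Stricter limits lower counts by construction. The cause of the shift with ribosomal centring is the 0.093 subtracted, which was taken from every gene alike. Apart from the authors' down call, carried by 12.1% of all genes, shares of all genes under these alternatives are not given here. The rise in negative calls after centring therefore cannot be read as particular to the 10 genes or to these lists.

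Recomputing the 10 genes under each alternative gave 70 values, of which 63 kept both sign and call, 5 lost the call (Slc2a1, Slc2a3 and Pgk1 under stricter limits), 2 gained it and 0 changed sign. Of the other named genes, 52 were recomputed. Among these, ribosomal centring turned Eno1 (-0.073), Eno1b (-0.065), Eno3 (-0.0086), Hif1a (-0.047) and Ldha-ps2 (-0.016), all without a call. Bsg (-0.19) and Mycn (-0.30) gained a call, and Eif1a (0.17) and Arnt (0.26) lost it.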
